A study of Mus musculus with 17 samples.

Results

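The 9 genes described here encode enzymes that build or break down the sphingolipids of myelin: Ugt8a, Fa2h, Gal3st1, Cers2, Elovl1, Sptlc1, Sptlc2, Degs1 and Smpd3. They were picked by symbol from the 78298 gene identifiers of the count tables, because Ugt8a, Fa2h and Gal3st1 had low counts in libraries labelled knockout. All 9 passed the filter on low counts. Differences between the genotype labels are therefore given for these genes as a description, with intervals and no test, while the comparisons of injured with sham ganglia did not enter the choice and were tested.

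Myelin is the lipid-rich membrane that Schwann cells wrap around peripheral axons, and galactolipids make up a large part of it. Serine palmitoyltransferase, with the subunits Sptlc1 and Sptlc2, starts the sphingoid backbone, the desaturase Degs1 finishes ceramide, and the elongase Elovl1 and the ceramide synthase Cers2 supply its very long acyl chains. Fa2h hydroxylates these chains, Ugt8a transfers galactose to ceramide to give galactosylceramide, and Gal3st1 sulfates that lipid to sulfatide. Smpd3, a neutral sphingomyelinase, works in the other direction and releases ceramide from sphingomyelin.

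RNA came from mouse lumbar dorsal root ganglia (DRG) at L4 to L6, the clusters of sensory neuron cell bodies beside the spinal cord together with their satellite glia, Schwann cells and connective tissue. The 17 libraries, each labelled day 30, formed 4 groups: 5 sham wild-type, 5 wild-type after CCI (chronic constriction injury of the sciatic nerve), 4 sham libraries and 3 CCI libraries labelled knockout for Twik1, the potassium channel encoded by Kcnk1. The sources used here do not give the strain, sex or age of the mice or the deleted part of Kcnk1. Nothing says that each library is a separate animal, and p-values then describe the spread between libraries alone, which may be technical. The number in the names of the count tables was shared by the 9 sham libraries and was a different one in either CCI group, with no statement of what it stands for. If it marks a batch, batch and group cannot be told apart in the injury comparisons and in the comparison of genotypes after CCI, whereas the sham genotype comparison lies within 1 number.

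Between 52.5 and 73.6 M counts (M, mega) per library fell in genes. The summed level of 9 sensory neuron markers, all detected, lay between 12087 and 15892 CPM (counts per M gene counts of the scaled library) in the 17 libraries. Kcnk1, counted over all of its exons, had 127 ± 18.9 CPM (SD, n = 5) in sham wild-type, 114 ± 6.83 (n = 5) in CCI wild-type, 89.8 ± 18.01 (n = 4) in sham knockout-labelled and 83.9 ± 5.36 (n = 3) in CCI knockout-labelled libraries. The ranges of the sham groups overlapped, and those of the CCI groups did not (78.3 to 89.0 CPM in knockout-labelled and 106 to 121 CPM in wild-type libraries). A count over whole exons does not check a partial deletion, so libraries are called by their labels. Sham knockout-labelled libraries 1 and 2 stood apart in genes that neurons express after axon injury: Atf3 had 141 and 103 CPM there, 11.1 and 13.2 CPM in libraries 3 and 4, and 9.42 to 16.7 CPM in sham wild-type libraries. Sprr1a had 96.5 and 45.4 CPM in those 2 libraries and 0.838 and 1.51 CPM in libraries 3 and 4. Whether these 2 libraries match their labels cannot be settled from the files used here, so values of the sham knockout-labelled group stand for libraries as labelled. Results that rest on these 2 libraries are given with and without them.

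Ugt8a and Gal3st1 catalyse the first and the last step of the galactolipid branch. Upstream sequence is shown for both, beside that of Degs1, a backbone gene of almost equal level in the 4 groups. The sequences are stretches of RefSeq promoter windows (250 bases before the start site, build GRCm38.p6) that hold no annotated exon, read 5′ to 3′ on the gene's strand. RefSeq windows were matched for 7 of the 9 genes, and Fa2h and Smpd3 were the other two. Of the 3 windows of Gal3st1, that nearest the canonical start is shown. The start sites of the windows shown lay 19 bases (Ugt8a), 20 bases (Gal3st1) and 609 bases (Degs1) from the canonical start. Capitals mark the letters GNGTGGGNG, a form of the Egr family motif, and ACAATG, a form of the Sox family motif, on either strand.
Ugt8a, chr3:125938653-125938787, minus strand: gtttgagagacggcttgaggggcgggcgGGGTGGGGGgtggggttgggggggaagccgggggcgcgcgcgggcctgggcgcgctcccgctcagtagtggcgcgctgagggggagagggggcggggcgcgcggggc
Gal3st1, chr11:3983386-3983615, plus strand: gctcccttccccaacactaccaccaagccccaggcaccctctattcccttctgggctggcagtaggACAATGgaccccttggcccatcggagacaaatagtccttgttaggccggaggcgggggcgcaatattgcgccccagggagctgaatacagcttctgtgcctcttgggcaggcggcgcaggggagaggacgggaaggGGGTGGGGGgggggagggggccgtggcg
Degs1, chr1:182282225-182282378, minus strand: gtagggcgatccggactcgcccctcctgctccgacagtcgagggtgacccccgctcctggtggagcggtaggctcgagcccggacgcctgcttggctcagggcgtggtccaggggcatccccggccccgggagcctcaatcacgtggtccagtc

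GNGTGGGNG occurred 1 time in the whole window of Ugt8a, 1 time in that of Gal3st1 and 0 times in that of Degs1. It also occurred 0 times in the windows of Cers2 and Elovl1, which were lower in knockout-labelled libraries, and of Sptlc1 and Sptlc2. The Gal3st1 window farthest from the canonical start held 0 as well. It occurs in 12.7% of the 32851 RefSeq promoter windows. ACAATG occurred 1 time in the Gal3st1 window and is present in 10.7% of windows. Of the other motifs searched on both strands, ACAAAG is present in 16.5%, CACGTG in 6.02%, GGGCGG in 32.7% and GNGGGNG, which every GNGTGGGNG contains, in 60.3% of windows. CACGTG occurred 1 time in the Degs1 window and 1 time in a Cers2 window, and GGGCGG 3 times in that of Ugt8a. GGGCGG also occurred in windows of Cers2, Elovl1, Sptlc1 and Sptlc2, and ACAAAG 1 time in that of Sptlc1. These matches describe letters in these windows and are not binding sites.

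Ugt8a (ENSMUSG00000032854), the galactosyltransferase, lies on chromosome 3 from 125654459 to 125732736 of GRCm39, on the minus strand (coordinates of genes below are on the same build). In libraries 1 to 5 of sham wild-type it had 146, 112, 116, 128 and 173 CPM, and in those of CCI wild-type 149, 109, 113, 117 and 163 CPM. The 4 sham knockout-labelled libraries had 32.8, 39.6, 44.2 and 48.4 CPM. Their CCI counterparts, numbered 2, 3 and 4, had 70.0, 40.2 and 51.7 CPM. Every knockout-labelled library lay below every wild-type library, and the highest of them reached 64.4% of the lowest wild-type level. The mean of the sham knockout-labelled group was 30.6% of the sham wild-type mean, a log2 difference of -1.71 ± 0.20 (SE, 95% interval -2.13 to -1.29). After CCI the log2 difference was -1.27 ± 0.21 (-1.73 to -0.81). Without sham libraries 1 and 2 the sham difference was -1.54.

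Fa2h (ENSMUSG00000033579), the fatty acid 2-hydroxylase, lies on chromosome 8 from 112071767 to 112120465. It followed the same order of groups as Ugt8a. Sham wild-type libraries had 113, 95.2, 109, 102 and 134 CPM, CCI wild-type libraries 111, 94.6, 103, 103 and 135 CPM, sham knockout-labelled libraries 32.1, 46.0, 47.8 and 48.1 CPM, and CCI knockout-labelled libraries 60.5, 43.4 and 44.2 CPM. The lowest value was that of sham knockout-labelled library 1, and no knockout-labelled library reached the wild-type range. The log2 difference between labels was -1.35 ± 0.15 (-1.66 to -1.03) in sham ganglia and -1.15 ± 0.16 (-1.50 to -0.80) after CCI. The sham value was -1.198 without libraries 1 and 2.

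Gal3st1 (ENSMUSG00000049721), the sulfotransferase that makes sulfatide, lies on chromosome 11 from 3933616 to 3951296. Its wild-type libraries had 46.0, 38.9, 43.7, 44.4 and 48.9 CPM after sham surgery and 50.2, 48.5, 43.7, 49.3 and 53.4 CPM after CCI. Its knockout-labelled libraries had 23.3, 27.5, 29.2 and 28.1 CPM after sham surgery and 34.9, 36.5 and 29.4 CPM after CCI. The 2 ranges did not overlap but came close, since the highest knockout-labelled value was 93.9% of the lowest wild-type value. The log2 difference was -0.72 ± 0.09 (-0.89 to -0.54) in sham ganglia, -0.63 without libraries 1 and 2, and -0.54 ± 0.09 (-0.74 to -0.35) after CCI.

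Cers2 and Elovl1 form the pair that supplies very long chain ceramide. Cers2 (ENSMUSG00000015714, chromosome 3 from 95221790 to 95234060) had 207 to 263 CPM in sham wild-type, 237 to 296 in CCI wild-type, 174 to 189 in sham knockout-labelled and 182 to 212 in CCI knockout-labelled libraries. Its labels separated within sham and within CCI libraries but overlapped over the 17, because CCI knockout-labelled library 2, at 212 CPM, exceeded sham wild-type library 2, at 207 CPM. The log2 difference was -0.37 ± 0.07 in sham ganglia and -0.40 ± 0.08 after CCI. Elovl1 (ENSMUSG00000006390, chromosome 4 from 118284346 to 118290150) had 135 to 165 CPM in sham wild-type, 138 to 182 in CCI wild-type, 98.7 to 107 in sham knockout-labelled and 98.5 to 114 in CCI knockout-labelled libraries. Every knockout-labelled library was below every wild-type library for Elovl1, with log2 differences of -0.52 ± 0.07 and -0.57 ± 0.08. Without libraries 1 and 2 the sham differences were -0.37 for Cers2 and -0.49 for Elovl1.

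Of the 3 genes of the ceramide backbone, Degs1 was close to level across the groups. Sptlc1 and Sptlc2 were slightly lower in knockout-labelled libraries. Degs1 (ENSMUSG00000038633, chromosome 1 from 182103335 to 182110389) had means of 496 ± 31.9, 482 ± 17.5, 499 ± 16.2 and 498 ± 21.3 CPM in sham wild-type, CCI wild-type, sham knockout-labelled and CCI knockout-labelled libraries. The 95% interval of its log2 difference between labels was -0.09 to 0.11 in sham ganglia and -0.06 to 0.16 after CCI. Sptlc1 (ENSMUSG00000021468, chromosome 13 from 53486729 to 53531449) had means of 38.5 ± 2.93, 39.4 ± 3.93, 35.9 ± 2.53 and 35.1 ± 2.65 CPM in the same order, and its ranges overlapped. Sptlc2 (ENSMUSG00000021036, chromosome 12 from 87351832 to 87435267) had 68.6 ± 5.63, 74.1 ± 2.50, 62.6 ± 2.61 and 65.0 ± 4.67 CPM, and its labels separated after CCI, where 59.8 to 68.8 CPM in knockout-labelled libraries lay below 70.6 to 76.9 CPM in wild-type libraries. Such a separation after CCI held for 4.37% of all tested genes. The log2 difference of Sptlc2 after CCI was -0.19 ± 0.07 (-0.33 to -0.04), and that of Sptlc1 was -0.17 ± 0.09 (-0.35 to 0.02). Averaged over sham and CCI, the differences were -0.16 (-0.26 to -0.06) for Sptlc2 and -0.13 (-0.26 to -0.01) for Sptlc1.

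Smpd3 (ENSMUSG00000031906, chromosome 8 from 106979176 to 107064670) went the other way. It had 26.3, 30.9, 28.7, 31.9 and 36.2 CPM in sham wild-type and 30.9, 21.0, 31.5, 25.9 and 25.3 CPM in CCI wild-type libraries. The CCI knockout-labelled libraries had 35.7, 38.0 and 36.8 CPM and lay above every CCI wild-type library, as held for 4.15% of all tested genes, with a log2 difference of 0.45 ± 0.12 (0.21 to 0.69). In the sham knockout-labelled group, libraries 1 and 2, which had high Atf3 and Sprr1a, had 38.1 and 38.1 CPM, and libraries 3 and 4 had 30.6 and 31.0 CPM. The log2 difference in sham ganglia was 0.16 ± 0.11 with these 2 libraries and 0.01 without them.

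**Figure D1:**
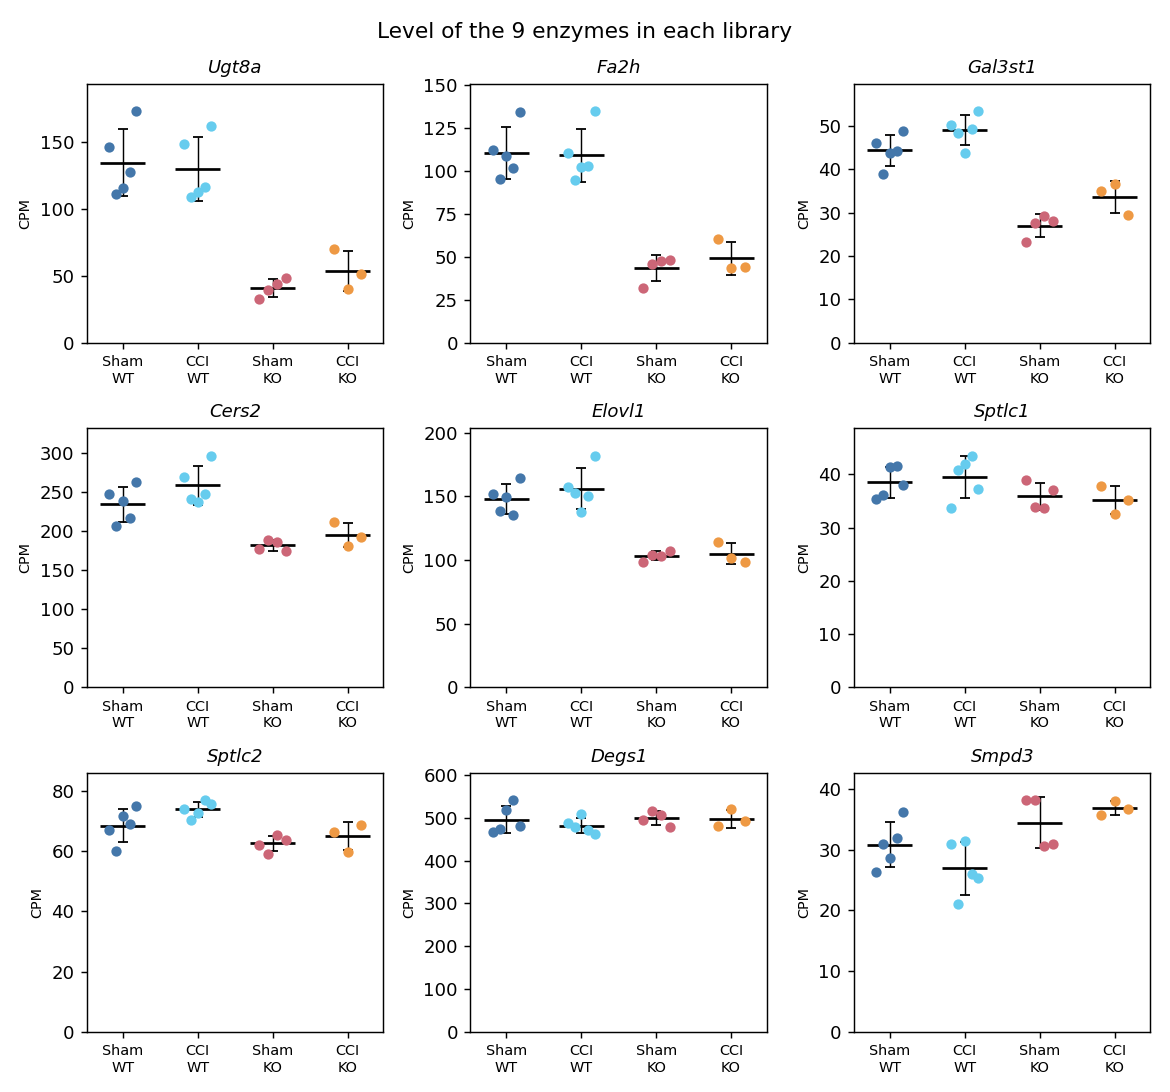
Level in CPM (vertical axes, each from 0) of the 9 enzymes in each library, by group on the horizontal axes (WT, wild type, and KO, labelled knockout). Points are libraries (5, 5, 4 and 3 from left to right), horizontal bars group means and whiskers the SD. Ugt8a and Fa2h show the widest gaps between the labels, and the ranges of Cers2, Sptlc1, Sptlc2, Degs1 and Smpd3 overlap between the labels over the 17 libraries.

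In all, 4 of the 9 enzymes (Ugt8a, Fa2h, Gal3st1 and Elovl1) had every knockout-labelled library below every wild-type library. Among all 23972 tested genes this held for 0.346%. In edgeR's quasi-likelihood test, with p-values adjusted by Benjamini-Hochberg across the 23972 genes, 2.55% were called: 447 genes (1.86%) were lower and 165 (0.688%) higher in knockout-labelled libraries on average over sham and CCI. In sham ganglia alone 1% of genes were called and 0.743% lower, and after CCI alone 0.684% were called and 0.501% lower. Every sham knockout-labelled library lay below every sham wild-type library for 2.08% of genes, and the same held after CCI for 4.37%, with 5 members (those 4 and Cers2) in the first set and 6 (with Sptlc2) in the second. Nothing is read from the members' counts here, since they were chosen on this difference.

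Per kilobase of the canonical transcript, Degs1 had the highest sham wild-type level at 242 ± 15.6 CPM per kb, followed by Cers2 at 106 ± 10.2 and Elovl1 at 77.5 ± 6.13. Fa2h at 44.4 ± 5.99 and Ugt8a at 35.9 ± 6.74 CPM per kb came next, and the ranges of mean ± SD of these 2 overlapped, which held for no other neighbours in this order. Sptlc1 at 14.6 ± 1.11, Gal3st1 at 11.9 ± 0.980, Sptlc2 at 10.01 ± 0.822 and Smpd3 at 5.92 ± 0.714 CPM per kb were lowest. In sham knockout-labelled libraries Fa2h stood between Elovl1 and Sptlc1 at 17.5 ± 3.07, while Ugt8a stood at 10.98 ± 1.78 CPM per kb, below the 13.6 ± 0.958 of Sptlc1. Over all annotated exons of each gene, the sham wild-type order was another one: Fa2h at 36.6 CPM per kb stood above Elovl1 at 27.2, and Gal3st1 at 4.00 was lowest, below Smpd3 at 5.33. The lengths come from the annotation and not from the transcripts used in these ganglia.

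Neither injury comparison moved an enzyme past the threshold. In wild-type ganglia 0 of 9 members passed an adjusted p of 0.05 in edgeR's quasi-likelihood test, against 3.06% of all tested genes (733 genes). In knockout-labelled libraries 0 of 9 passed, against 0.0834% (20 genes). One enzyme in each comparison had an unadjusted p under 0.05. DESeq2 and limma-voom called none of the 9 either. Their median log2 change was 0.03 in wild type and 0.09 in knockout-labelled libraries, and that of all tested genes was -0.01 in both.

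For Ugt8a the log2 change after CCI was -0.05 ± 0.18 in wild type (95% interval -0.43 to 0.33, adjusted p = 0.959 by edgeR) and 0.39 ± 0.21 in knockout-labelled libraries (-0.07 to 0.85, adjusted p = 0.666). For Fa2h it was -0.02 ± 0.14 (-0.31 to 0.27) and 0.18 ± 0.16 (-0.17 to 0.53). As folds, the interval of Ugt8a in wild type ran from 0.741 to 1.25, and in knockout-labelled libraries from 0.951 to 1.80. Without sham libraries 1 and 2 the change in knockout-labelled libraries was 0.22 for Ugt8a and 0.04 for Fa2h.

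Gal3st1 had the smallest p of the members after CCI in knockout-labelled libraries, where the 3 CCI libraries (29.4 to 36.5 CPM) lay above the 4 sham libraries (23.3 to 29.2 CPM), as held for 4.41% of all tested genes. Its log2 change was 0.32 ± 0.10 (0.12 to 0.51), with an unadjusted p of 0.00292 and an adjusted p of 0.276 by edgeR. Without sham libraries 1 and 2 it was 0.23 with an adjusted p of 0.507, and the CCI range stayed above libraries 3 and 4 (29.2 and 28.1 CPM). In wild type Gal3st1 changed by 0.14 ± 0.08, with overlapping ranges. Cers2 had the smallest p in wild type, with a change of 0.14 ± 0.07 (0.00 to 0.28), an unadjusted p of 0.0452 and an adjusted p of 0.343 by edgeR.

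The other 5 enzymes had log2 changes from -0.19 (Smpd3) to 0.11 (Sptlc2) in wild type and from -0.03 (Sptlc1) to 0.09 (Smpd3) in knockout-labelled libraries. The interval of Degs1 was the narrowest, from -0.14 to 0.06 in wild type and from -0.12 to 0.11 in knockout-labelled libraries. The interaction, which asks whether the injury effect differed between the labels, gave 0 of 9 members and 0% of all tested genes past the threshold in edgeR, where 0 members and 1408 genes had an unadjusted p under 0.05. DESeq2 called 20 genes and limma-voom 4 for the interaction, none of them a member. The interaction estimates were largest for Ugt8a, at 0.44 ± 0.28 (-0.15 to 1.04), and Smpd3, at 0.29 ± 0.16 (-0.04 to 0.62, unadjusted p = 0.0833).

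**Figure D2:**
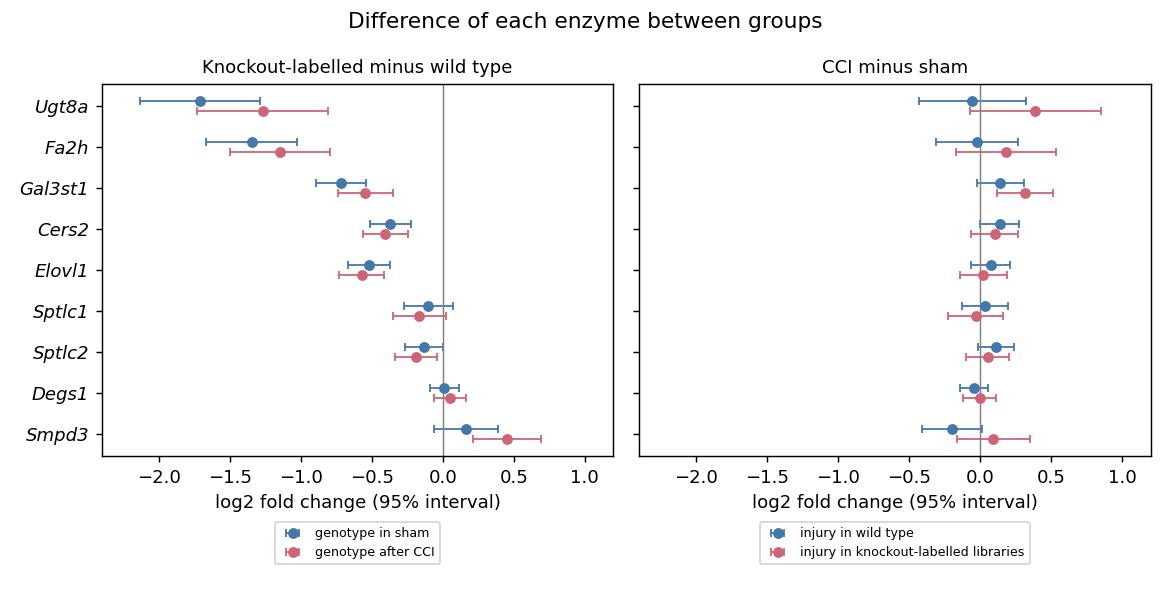
Log2 fold change of each enzyme (horizontal axis, points with 95% intervals) between genotype labels (left) and between CCI and sham (right), with 1 colour per background in each panel. Left, Ugt8a lies at -1.71 and -1.27, while Degs1 lies at 0.01 and 0.05. Right, the intervals include 0 except those of Cers2 in wild type and Gal3st1 in knockout-labelled libraries.

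CCI itself was visible in these libraries. Atf3, a transcription factor induced by axon injury, rose from 12.3 ± 3.38 to 220 ± 67.1 CPM in wild type (log2 change 4.17 ± 0.68, adjusted p = 0.00425 by edgeR). Sprr1a, a gene of regenerating axons, had 0.0183 to 0.538 CPM in sham and 181 to 371 CPM in CCI wild-type libraries (adjusted p = 0.00119 by edgeR; the call was lost in limma-voom, with an adjusted p of 0.349). Of 5 axon injury genes, 5 were called higher after CCI in wild type by edgeR and DESeq2, and 3 by limma-voom. In knockout-labelled libraries 0 of 5 passed in edgeR with all sham libraries, although 2 had an unadjusted p under 0.05, DESeq2 called 1 and limma-voom 0, and 3 of 5 passed without sham libraries 1 and 2.

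The other sphingolipid genes were looked at through 68 genes in 7 lists, 65 of which were tested. After CCI in wild type 2 of the 65 were called higher and 0 lower, with 3.06% of all genes called. Cers6, a ceramide synthase for shorter acyl chains, went from 11.5 ± 1.62 to 16.4 ± 1.1995 CPM (log2 change 0.51 ± 0.13, adjusted p = 0.0214 by edgeR). Gltp, a glycolipid transfer protein, went from 51.7 ± 2.06 to 63.0 ± 4.98 CPM (0.28 ± 0.07, adjusted p = 0.0163). The call for Cers6 was lost when sham wild-type library 1 or CCI wild-type library 2, 4 or 5 was left out, and that for Gltp when CCI wild-type library 4 or 5 was left out. In knockout-labelled libraries 0 of 65 passed in edgeR, DESeq2 and limma-voom, and 6 had an unadjusted p under 0.05 in edgeR.

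Between the labels, averaged over sham and CCI, 4 of the 65 were called lower and 1 higher, where 1.86% and 0.688% of all tested genes were. The median log2 difference of the 65 was 0.01. The largest among the 5 called was that of Smpd2, a neutral sphingomyelinase, with 18.7 ± 1.45 CPM in wild-type and 15.3 ± 2.01 CPM in knockout-labelled libraries after sham surgery, and 20.8 ± 1.75 and 15.3 ± 1.73 CPM after CCI (-0.36 ± 0.08, adjusted p = 0.00803 by edgeR). Elovl6, a fatty acid elongase, was lower with a difference of -0.25 ± 0.05 (adjusted p = 0.00384). Sgms1, a sphingomyelin synthase, had -0.23 ± 0.05 (adjusted p = 0.011), and the ceramide synthase Cers4 had -0.17 ± 0.04 (adjusted p = 0.0142). Galc, the lysosomal enzyme that removes galactose from galactosylceramide, was higher, at 33.9 ± 5.91 against 26.8 ± 1.40 CPM in sham and 35.9 ± 3.84 against 31.2 ± 2.66 CPM in CCI ganglia (0.27 ± 0.07, adjusted p = 0.0374).

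Without sham libraries 1 and 2 the count was 0 higher and 3 lower, and Galc (adjusted p = 0.122) and Sgms1 (adjusted p = 0.101) no longer passed. The call for Galc was also lost with the library number as a replicate block and in 9 of the 17 fits that each left out 1 library. That for Cers4 was lost without CCI knockout-labelled library 3 or 4, and that for Sgms1 without CCI knockout-labelled library 3. In sham ganglia alone 0 of 65 passed in edgeR (14 with an unadjusted p under 0.05), DESeq2 called 2 and limma-voom 0. After CCI alone edgeR called 1 lower, Elovl6, and DESeq2 and limma-voom each called 3 lower. The 10 glucosylceramide and ganglioside genes, the sphingolipid branch in which glucose replaces galactose, held 0 calls for the mean genotype difference in edgeR, with 4 at an unadjusted p under 0.05, 0 in DESeq2 and 1 in limma-voom. Their median was 0.04.

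All 13 myelin protein genes were called lower in knockout-labelled libraries for the mean of sham and CCI, as were 1.86% of all tested genes. Their median log2 difference was -0.64, and 12 were called lower without sham libraries 1 and 2. Pmp22, a compact myelin protein, had 5951 ± 759 CPM in sham wild-type and 2912 ± 313 CPM in sham knockout-labelled libraries (mean genotype difference -0.98 ± 0.09, adjusted p = 2.14e-05 by edgeR). Gjb1, the gap junction protein of Schwann cell myelin, had 21.6 ± 3.21 and 10.9 ± 1.87 CPM (-0.89 ± 0.10, adjusted p = 5.80e-06), and Cnp, an enzyme of non-compact myelin, 456 ± 38.5 and 337 ± 26.6 CPM (-0.48 ± 0.05, adjusted p = 1.80e-06). In sham ganglia alone 10 of 13 were called lower. Without libraries 1 and 2 it was 3 of 13, with 11 at an unadjusted p under 0.05 in edgeR. After CCI alone 9 of 13 were called lower. Of all tested genes 0.743% were called lower in sham ganglia and 0.501% after CCI. All 13 log2 differences were below 0 in each of these fits. The highest was -0.34 in sham ganglia, -0.24 there without libraries 1 and 2, and -0.38 after CCI.

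Of 9 Schwann cell regulators, Sox10, the transcription factor of the glial lineage, rose after CCI in wild type from 85.7 ± 4.95 to 105 ± 8.56 CPM (0.30 ± 0.06, adjusted p = 0.00833). Sox10 was lower in knockout-labelled libraries, with a difference of -0.28 ± 0.05 (adjusted p = 0.00168). So was Qki, an RNA-binding protein, with -0.31 ± 0.08 (adjusted p = 0.0356). Qki did not pass without sham libraries 1 and 2 (adjusted p = 0.199) or with the replicate block, and its call was lost in 10 of the 17 fits that left out 1 library. Egr2, the transcription factor of the myelinating state, had 36.3 ± 5.35 CPM in sham wild-type, 21.9 ± 6.69 in sham knockout-labelled, 32.8 ± 6.04 in CCI wild-type and 32.3 ± 2.28 in CCI knockout-labelled libraries, and did not pass in any of these comparisons in edgeR. The lowest sham log2 difference of the 9 regulators was -0.73 with all libraries and -0.47 without sham libraries 1 and 2. In sham ganglia edgeR called 0 of the 9 and DESeq2 called 2 lower.

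**Figure D3:**
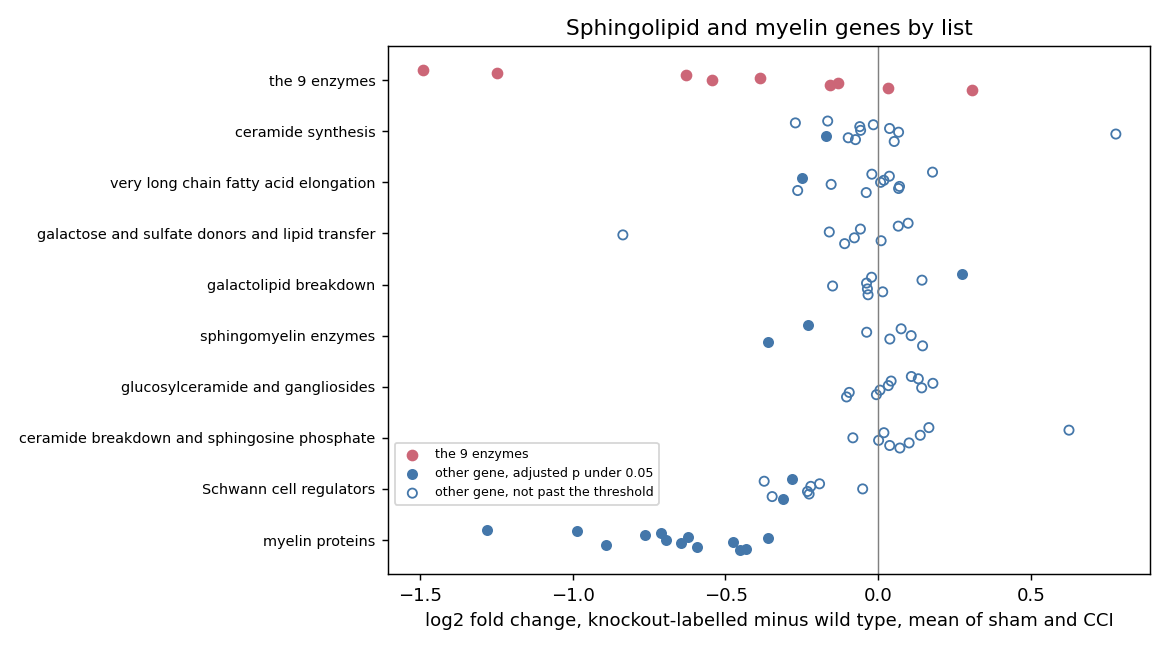
Log2 fold change between genotype labels, averaged over sham and CCI (horizontal axis), of the 9 enzymes and of the tested genes of 9 lists (rows). Filled blue points passed an adjusted p of 0.05 in edgeR and open points did not. The 13 myelin protein genes lie left of 0, and the 7 sphingolipid lists scatter around 0.

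In bulk ganglia, fewer myelinating Schwann cells and less RNA of these genes per cell cannot be told apart. The summed level of the 13 myelin protein genes was 11425 to 16129 CPM in sham wild-type, 12666 to 17027 in CCI wild-type, 5743 to 7659 in sham knockout-labelled and 7272 to 8891 in CCI knockout-labelled libraries. Set against this sum, the enzymes did not all behave alike. Ugt8a had 10.1 ± 0.761 CPM per 1000 CPM of myelin protein transcripts in sham wild-type, 9.18 ± 0.598 in CCI wild-type, 5.995 ± 0.372 in sham knockout-labelled and 6.75 ± 1.18 in CCI knockout-labelled libraries, so that it was low relative to the myelin protein genes as well. Fa2h had 8.30 ± 0.114, 7.75 ± 0.344, 6.32 ± 0.559 and 6.20 ± 0.520 in the same order. Taken singly, the 13 myelin protein genes had mean genotype log2 differences of -1.28 to -0.36. Fa2h, at -1.25, lay within this range, and Ugt8a, at -1.49, below it. Without sham libraries 1 and 2 the range was -1.13 to -0.38, with Fa2h at -1.17 and Ugt8a at -1.40.

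Gal3st1 and Cers2 had the opposite order of means relative to myelin protein transcripts, as did Elovl1, Sptlc1, Sptlc2, Degs1 and Smpd3. For Degs1, close to level in CPM, the means were 37.8 in sham wild-type and 73.7 in sham knockout-labelled libraries. A gene that falls less than the sum rises in this ratio. Pmp22, with a mean of 4752 CPM, weighs most in the sum. The mean log2 difference of Gal3st1 (-0.63) was close to the median of the 13 myelin protein genes (-0.64). Gal3st1 had 3.35 ± 0.219 and 3.51 ± 0.319 per 1000 in sham and CCI wild-type libraries and 3.95 ± 0.180 and 4.28 ± 0.641 in the knockout-labelled groups. Its ranges in CCI wild-type (3.14 to 3.89) and sham knockout-labelled libraries (3.79 to 4.15) overlapped. Cers2 had 17.7 ± 0.805 and 18.4 ± 0.833 in wild type and 26.8 ± 3.45 and 24.8 ± 0.799 in knockout-labelled libraries. These ratios carry the genotype difference that chose the genes and were not tested. In sham knockout-labelled libraries 3 and 4 the ratios were 5.77 and 6.53 for Ugt8a and 24.3 and 23.5 for Cers2, and in libraries 1 and 2 they were 5.71 and 5.98 for Ugt8a and 30.8 and 28.5 for Cers2. Libraries 3 and 4 thus lay on the same side of the wild-type range as libraries 1 and 2 for both genes.

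**Figure D4:**
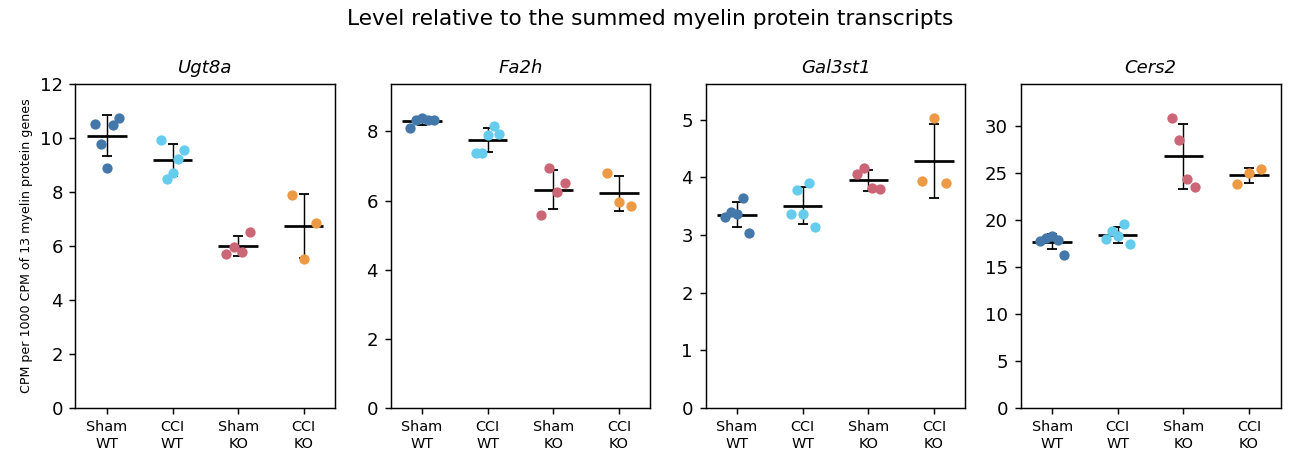
Level of 4 enzymes as CPM per 1000 CPM of the 13 summed myelin protein genes (vertical axes, each from 0), by group. Points are libraries, bars means and whiskers the SD. Ugt8a and Fa2h are lower in both knockout-labelled groups (means of 5.995 and 6.75 for Ugt8a against 10.1 and 9.18), and Cers2 is higher.

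Markers of other cells were compared in the same libraries. The 4 markers of non-myelinating Schwann cells summed to 1126 to 1337 CPM in sham wild-type, 1158 to 1243 in CCI wild-type, 1107 to 1425 in sham knockout-labelled and 1262 to 1306 in CCI knockout-labelled libraries, and 0 of 4 passed for the mean genotype difference in edgeR (1 with an unadjusted p under 0.05, and 1 called higher by DESeq2 and limma-voom). The 5 satellite glia markers summed to 473 to 610, 655 to 752, 389 to 574 and 591 to 621 CPM in the same order. Of these, 1 (Ptprz1) was called higher in knockout-labelled libraries and 2 (Fabp7 and Cdh19) were called higher after CCI in wild type. Of 4 tested oligodendrocyte markers 1 (Aspa) was called lower in knockout-labelled libraries. The 5 listed summed to 57.3 to 140 CPM in sham wild-type, 75.8 to 101 in CCI wild-type, 48.3 to 77.9 in sham knockout-labelled and 69.3 to 72.5 in CCI knockout-labelled libraries. Mog had group means of 0.0131 to 0.646 CPM, and Opalin was at 0 in the CCI wild-type libraries.

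Of 5 fibroblast markers 1 was called lower (Col1a2, -1.08 ± 0.24, adjusted p = 0.027 by edgeR), with summed ranges of 745 to 1314, 969 to 1866, 634 to 1130 and 777 to 864 CPM in the same order. The calls for Ptprz1, Aspa and Col1a2 were lost without sham libraries 1 and 2. The 4 melanocyte markers summed to 15.3 to 23.2 and 14.7 to 17.99 CPM in sham and CCI wild-type libraries and to 2.23 to 6.78 and 1.46 to 3.81 CPM in the knockout-labelled groups. Of the 2 tested 1 was called lower (Tyrp1, -2.58 ± 0.27, adjusted p = 8.51e-05 by edgeR), and Dct and Mlana had group means under 0.1 CPM. Skeletal muscle markers (4 genes, 0 called in edgeR, DESeq2 and limma-voom, 0 with an unadjusted p under 0.05 in edgeR, median log2 difference 1.87) summed to 3.10 to 708 CPM in sham knockout-labelled, 104 to 175 in CCI knockout-labelled, 1.85 to 136 in sham wild-type and 4.37 to 65.8 in CCI wild-type libraries. For the mean genotype difference 0 of 5 repair Schwann cell, 6 macrophage, 4 endothelial and 3 adipocyte markers passed in edgeR, DESeq2 or limma-voom. Their median log2 differences in edgeR were -0.53, 0.19, -0.25 and -0.05, and 2 endothelial markers had an unadjusted p under 0.05. The part of all these cells in the enzyme differences was not tested.

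Variation within groups was examined as well. Each library's log2 CPM was taken as its deviation from its group mean, which removes the genotype and injury differences, and the 36 pairs of members were correlated over the 17 libraries with 100000 permutations within groups. Of these pairs, 8 had a Pearson p under 0.05 after Benjamini-Hochberg adjustment over the 36, and all 8 lay among the 10 pairs of Ugt8a, Fa2h, Gal3st1, Cers2 and Elovl1 (r from 0.567 to 0.891). Over all pairs of 11186 protein-coding genes with a mean of at least 5 CPM, 3.46% had an r of at least 0.567. Ugt8a and Fa2h had r = 0.891 and rho = 0.892 (permutation p = 2e-05, adjusted 0.00072, for each), and r = 0.839 without the 2 libraries farthest from the median of Ugt8a. Ugt8a and Cers2 had r = 0.789 and rho = 0.752 (permutation p = 0.00084 and 0.00244, adjusted 0.00546 and 0.0146), and r = 0.709 without those 2 libraries. Cers2 and Elovl1 had r = 0.875 and rho = 0.828 (permutation p = 0.00033 and 0.0014, adjusted 0.00297 and 0.0126), and r = 0.774 without 2.

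The weakest of the 10 pairs was Ugt8a with Gal3st1, at r = 0.567 and rho = 0.627 (permutation p = 0.0451 and 0.0202, adjusted 0.137 and 0.0806), and r = 0.497 without 2. The other 26 pairs, with Degs1, Sptlc1, Sptlc2 or Smpd3, ran from -0.541 to 0.565, and 0 of them passed after adjustment, with 3 at an unadjusted p under 0.05. Degs1 with Ugt8a had r = -0.464 and rho = -0.441 (permutation p = 0.0928 and 0.111, adjusted 0.223 and 0.250), and r = -0.370 without 2. Without sham knockout-labelled libraries 1 and 2, Ugt8a had r = 0.906 with Fa2h, 0.858 with Cers2, 0.774 with Elovl1, 0.467 with Gal3st1 and -0.493 with Degs1. Pairs that lack Ugt8a were not recomputed in this way. Sham wild-type library 5 was highest of its group in Ugt8a, Fa2h, Gal3st1, Cers2 and Elovl1, and CCI wild-type library 5 was highest of its group in the same 5 genes. The points of these correlations share each library's depth and cell make-up, whose part was not tested. The permutations also treat the libraries of all groups as independent. Wild-type libraries of the same number had similar deviations of Ugt8a and Fa2h in sham and CCI. If same-numbered libraries are related, the permutation p-values are too small.

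The protein-coding genes most like Ugt8a were ranked by the Pearson correlation of the same deviations over the 17 libraries, among 11185 genes with a mean of at least 5 CPM. The first 7 were Limch1 (r = 0.916), Drp2 (0.906), Ndrg1 (0.891), Fa2h (0.891), Prx (0.888), Evc2 (0.887) and Mbp (0.885), and 3 of them (Drp2, Prx and Mbp) are on the list of 13 myelin protein genes. By Spearman correlation these 7 ranked between 1 and 19, and by Pearson correlation without sham knockout-labelled libraries 1 and 2 they ranked between 1 and 12. Among the other members Cers2 ranked 42nd, Elovl1 56th, Gal3st1 341st and Sptlc2 362nd, while Smpd3, Sptlc1 and Degs1 ranked 5523rd, 8223rd and 10428th.

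**Figure D5:**
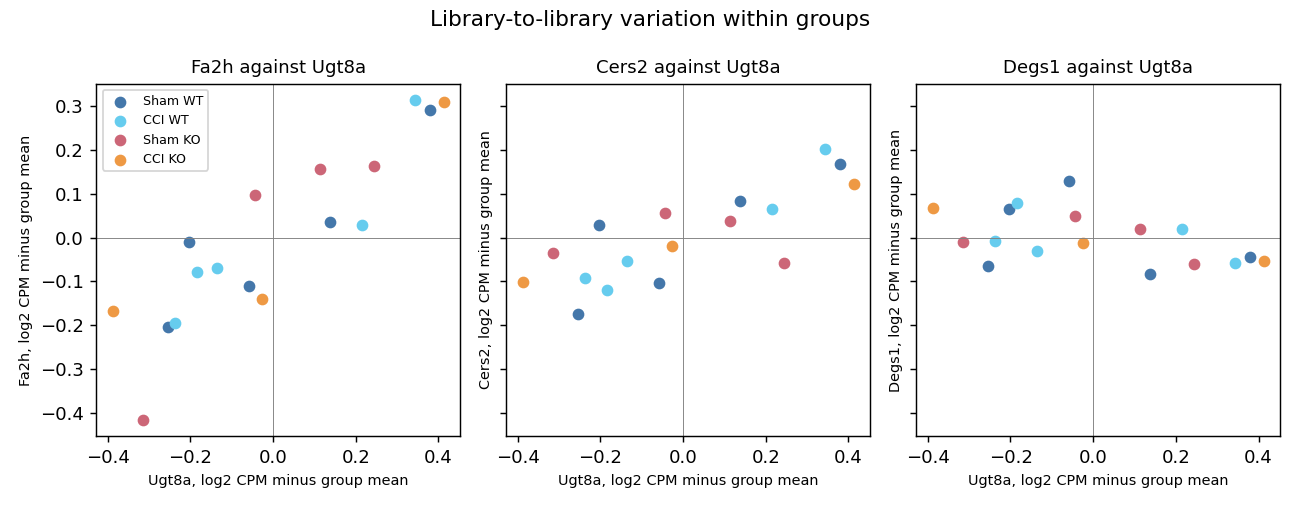
Deviation of each library from its group mean, in log2 CPM, of Fa2h, Cers2 and Degs1 (vertical axes) against that of Ugt8a (horizontal axes). Points are the 17 libraries, coloured by group. Fa2h rises with Ugt8a (r = 0.891) and Degs1 does not (r = -0.464).

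The depth behind these values was ample for each enzyme, with 1203 to 39629 reads per library for the 9. The library protocol keeps no strand, so reads where genes overlap cannot be assigned by strand. Fa2h, Gal3st1 and Degs1 overlap no other annotated gene, while Cers2 overlaps Setdb1, Elovl1 overlaps Cdc20, Smpd3 overlaps Prmt7 and 4 noncoding genes, and Sptlc2 overlaps 2. Ugt8a and Sptlc1 each overlap 1 noncoding gene. The values of these 6 genes are uncertain to that extent.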

How the data were processed

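Per the labels' protocols, RNA of mouse DRG was extracted with PicoPure reagents and converted to libraries by SMART-Seq v4 Ultra Low Input chemistry. Per the submitters' processing notes, the authors used bcl2fastq 2.20.0.422, STAR 2.7.11a and GRCm39. Nothing on the counter, its strand setting or its gene models was given in the sources used here. The deposited values are raw counts per Ensembl gene. The 5 summary lines of each table were left out of totals and tests: reads outside genes took 4.03 to 4.55% and ambiguous reads 7.63 to 8.17% of each table. GENCODE M39 matched 78168 of 78298 identifiers. Promoter stretches came from RefSeq (GRCm38.p6), and exonic bases were left out by matching them to GRCm39.

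Of 46200 genes with a count, 23972 passed filterByExpr by group (minimum count 10, minimum total 15). edgeR 4.0.16 (R 4.3.3) used TMM factors of 0.983 to 1.03, a mean per group over 17 libraries (13 residual degrees of freedom), robust dispersions (biological coefficient of variation 0.346) and the quasi-likelihood F test, adjusted by Benjamini-Hochberg, with a threshold of 0.05. CPM used the scaled library sizes, and log2 CPM a prior count of 2. SDs are between libraries, SEs come from the fit. On simulated counts of wild-type injury over 22956 genes, 57 of 100 genes changed by 1 on the log2 scale and 31 of 100 changed by 0.5 were called, with 3 false calls. The changed genes were drawn at random from all tested genes. The enzymes had biological coefficients of variation of 0.07 (Degs1) to 0.19 (Ugt8a), so these rates do not describe them. Figures used Matplotlib 3.10.9.

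The members and lists were chosen with earlier results of these data known. Named genes were the 9 members, up to 3 past the threshold per list for the mean genotype difference and for injury in wild type, by smallest p, Atf3 and Sprr1a, Kcnk1, and the 8 genes most like Ugt8a. Egr2 and the marker genes named were chosen after their values were seen. Results of some genes that this rule names are not reported here. The alternatives were DESeq2 1.42.0 (size factors, test), limma-voom 3.58.1, no filter, 1 CPM in 5 libraries, a replicate block, only the groups compared, leaving out each library, and leaving out sham knockout-labelled libraries 1 and 2.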

Additional observations from a re-analysis of the deposited data

Results flagged for a closer look

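Fa2h in sham knockout-labelled library 1, at 32.1 CPM, lay below libraries 2 to 4 of its group (46.0 to 48.1 CPM) by a gap that took 0.864 of the group's range, above Dixon's critical value of 0.829 for 4 samples. It was the only flag in 27 such tests of the 9 enzymes in the 3 groups of 4 or 5 libraries, and chance flags about 1 group in 20. Library 1 was also lowest of its group for Ugt8a, Gal3st1 and Elovl1, and had the highest Atf3 and Sprr1a of the sham libraries. Whether these go together was not tested.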

How the results depend on the processing

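In the injury and interaction comparisons the 9 enzymes stayed short of the threshold in all 207 estimates under alternatives other than leaving out 1 library (smallest adjusted p 0.116) and in all 459 with 1 library left out (smallest 0.188). The sign turned in 2 of the former, both without sham knockout-labelled libraries 1 and 2 (injury in knockout-labelled libraries: Elovl1 -0.0042, Degs1 0.0175), and in 17 of the latter, with ranges for injury in wild type of -0.15 to 0.053 (Ugt8a), -0.11 to 0.063 (Fa2h) and -0.0043 to 0.085 (Sptlc1), for injury in knockout-labelled libraries of -0.045 to 0.063 (Elovl1), -0.086 to 0.019 (Sptlc1) and -0.040 to 0.024 (Degs1), and for the interaction of -0.10 to 0.018 (Cers2) and -0.12 to 0.0081 (Elovl1). The genotype estimates of the 9 moved by less than 1 SD between libraries in all 207 and 459 alternatives. Counts of called genes moved more. For injury in wild type (733) they were 1301 without a filter, 1128 in DESeq2, 1192 in limma-voom and 423 to 998 with 1 library left out. For injury in knockout-labelled libraries (20) they were 11 with DESeq2's size factors, 224 without a filter, 127 in DESeq2, 31 in limma-voom, 147 without sham libraries 1 and 2, 4 with only the groups compared and 0 to 43 with 1 left out. For the interaction (0) they were 77, 20 and 4 without a filter, in DESeq2 and in limma-voom, and 0 to 7 with 1 left out. For genotype in sham (240) they were 702 without a filter, 621 in DESeq2, 37 without libraries 1 and 2, 69 with only the groups compared and 88 to 665 with 1 left out. For genotype after CCI (164) they were 452 without a filter, 405 in DESeq2, 439 in limma-voom, 407 with only the groups compared and 18 to 229 with 1 left out. For the mean genotype effect (612) they were 1112, 992 and 1074 without a filter, in DESeq2 and in limma-voom, 404 without libraries 1 and 2 and 396 to 995 with 1 left out. The causes of these shifts were not tested. Over all tested genes, of 22 same-numbered pairs across groups 1 correlated above 0.1 (-0.01 to 0.12). By the same measure 6 of 17 libraries correlated best with their own number. Wild-type libraries 1 to 5 deviated from the group mean of Ugt8a by log2 0.14, -0.25, -0.20, -0.06 and 0.38 in sham. After CCI the values were 0.21, -0.24, -0.18, -0.135 and 0.34, in the same order of libraries. Knockout-labelled libraries 2, 3 and 4 had -0.04, 0.11 and 0.24 in sham and 0.41, -0.39 and -0.03 after CCI. Whether the library numbers pair the samples cannot be settled from these values. With the replicate block the counts were 46 for injury in knockout-labelled libraries, 139 for genotype in sham, 91 for genotype after CCI and 402 for the mean genotype effect.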
